A study of Mus musculus with 4 samples.

Results

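Globin genes and the erythroid enzyme gene Alas2 were followed through 4 CAGE libraries of cultured mouse tooth germs. Of 5 genes listed by name, 4 (Hbb-y, Hba-x, Hba-a1 and Alas2) were found among the 15887 genes of the count table, and Hbb-bh1 was not analysed here. The rule takes genes by symbol and uses no measured value, but the members were chosen with earlier results of these data known. The libraries came from tooth germs of ICR mice, kept as an organ culture with cyclophosphamide (CPA), an alkylating anticancer drug, or with its solvent DMSO alone, at 25 °C or at 37 °C. They are called 25°C_CPA, 25°C_DMSO, 37°C_CPA and 37°C_DMSO, and every library pooled more than 5 tooth germs of the same strain. The sources give embryonic day 14.5 or a day earlier for the dissection and 2.5 or 0.25 mM for CPA, give 3 days of treatment, and differ on whether 4 further days of culture without CPA, at 37 °C, came before the RNA was taken. Those 3 points are unsettled here, so the 25 °C libraries may come from tissue that had been returned to 37 °C.

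Haemoglobin carries oxygen in red cells and is built from α-like and β-like globin chains, each holding a haem. In the mouse, primitive red cells from the yolk sac use the embryonic chains encoded by Hbb-y and Hbb-bh1 (β-like) and Hba-x (α-like, ζ-globin), while red cells made later use the adult chains of Hba-a1, Hba-a2, Hbb-bs and Hbb-bt. Alas2 encodes the erythroid form of 5-aminolevulinate synthase, the first enzyme of haem synthesis, and its relative Alas1 serves other cells. In a tooth germ, red cells lie in the vessels of the mesenchyme, and an explant is cut off from the circulation.

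CAGE counts the capped 5′ ends of RNAs, which lie downstream of promoters, so promoters of the genes are shown next. The counts are gene sums without start positions, so whether they arose at the RefSeq starts used here was not tested. The 120 bases before each RefSeq start (GRCm38.p6) are given for the 4 genes and for the adult β-globin Hbb-bs, because they carry the short motifs long described at globin promoters. Capitals mark the CCAAT box, the CACCC motif, the GATAA motif bound by GATA factors, and the start-proximal motifs ATAAA or TATAA, all searched on both strands. The motif ATAAA may overlap either of the motifs TATAA or GATAA.
Hbb-y, chr7:103853208-103853327, minus strand: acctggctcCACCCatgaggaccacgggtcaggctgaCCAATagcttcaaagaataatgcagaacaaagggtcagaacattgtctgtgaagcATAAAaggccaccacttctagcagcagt
Hba-x, chr11:32276480-32276599, plus strand: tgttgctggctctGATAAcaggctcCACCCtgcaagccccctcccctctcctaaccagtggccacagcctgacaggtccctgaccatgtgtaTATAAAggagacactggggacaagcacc
Hba-a1, chr11:32283552-32283671, plus strand: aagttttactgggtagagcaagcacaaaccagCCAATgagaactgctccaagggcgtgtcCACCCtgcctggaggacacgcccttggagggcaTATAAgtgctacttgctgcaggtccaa
Alas2, chrX:150547297-150547416, plus strand: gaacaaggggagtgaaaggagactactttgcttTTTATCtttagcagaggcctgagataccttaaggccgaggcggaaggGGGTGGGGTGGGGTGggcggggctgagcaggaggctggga
Hbb-bs, chr7:103827929-103828048, minus strand: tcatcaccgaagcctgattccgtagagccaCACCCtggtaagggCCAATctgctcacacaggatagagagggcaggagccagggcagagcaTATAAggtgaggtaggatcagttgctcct

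CACCC was found in the promoters of all 4 genes, CCAAT in Hbb-y and Hba-a1, and GATAA in Hba-x and Alas2. ATAAA lay 28 bases before the start in Hbb-y and 27 bases before it in Hba-x, where it overlapped TATAA, and TATAA lay 27 bases before the start of Hba-a1. In Alas2 the only ATAAA was on the opposite strand and overlapped GATAA, and CACCC occurred 3 times on that strand. Over windows of the same length in 32851 RefSeq promoters, CACCC was found in 31.7%, CCAAT in 21.3%, ATAAA in 20.2%, TATAA in 11.8% and GATAA in 10.5%. These matches are letters in a window and say nothing of binding. On mm9, the build of the counts, GENCODE vM1 places Hbb-y at chr7:111000259-111001754 on the minus strand, Hba-x at chr11:32176400-32178116 and Hba-a1 at chr11:32183511-32184465 on the plus strand, and Alas2 at chrX:146981918-147005181 on the plus strand. Apex2, on the minus strand, overlaps the annotated span of Alas2.

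The libraries held 15101186 to 16449264 counts, and levels are given as CPM (counts scaled to the library size) after TMM scaling, with 3 counts standing for 0.177 to 0.205 CPM. Each condition is a single library, so differences between conditions lack replication and were given no p-value, and the 95% intervals (exact binomial split of the 2 counts) cover counting error only. A gene was measured in a comparison at 50 counts or more in its higher library and called where the fold reached 2 in either direction. All 14 listed genes of the dental epithelium and all 14 of the dental mesenchyme had counts in every library, summing to 3476, 3618, 4032 and 3968 CPM and to 1381, 1350, 1114 and 1445 CPM in 25°C_CPA, 25°C_DMSO, 37°C_CPA and 37°C_DMSO.

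Hbb-y, the embryonic β-like globin, had the most counts of the 4 genes in every library. Its counts were 1068 in 25°C_CPA and 1542 in 25°C_DMSO, against 138 in 37°C_CPA and 82 in 37°C_DMSO. That is 71.2 and 106 CPM at 25 °C, against 8.83 and 4.84 CPM at 37 °C. Both 25 °C libraries were far above both 37 °C libraries, and the CPA library was the lower of the 25 °C pair and the higher of the 37 °C pair. The counting intervals of the 4 levels did not overlap.

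Hba-x encodes ζ-globin, the embryonic α-like chain. It had 233 counts in 25°C_CPA and 147 in 25°C_DMSO, against 63 in 37°C_CPA and 29 in 37°C_DMSO, or 15.5, 10.1, 4.03 and 1.71 CPM. The 25 °C libraries were again the higher ones, and here the CPA library was above the DMSO library at both temperatures.

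Hba-a1, an adult α-globin gene, had 100 counts in 25°C_CPA and 57 in 25°C_DMSO, against 27 in each 37 °C library, or 6.67, 3.90, 1.73 and 1.6 CPM in 25°C_CPA, 25°C_DMSO, 37°C_CPA and 37°C_DMSO. The 37 °C libraries could not be told apart at this depth. The longest annotated transcripts of Hba-a1 and Hba-a2 share an unbroken run of 415 bases, and Hba-a2 was not analysed here, so the count of Hba-a1 may miss or include tags of its copy. The longest run that Hba-a1 shares with Hba-x is 18 bases.

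Alas2 had 59 counts in 25°C_CPA and 51 in 25°C_DMSO, against 17 in 37°C_CPA and 20 in 37°C_DMSO. These are 3.94, 3.49, 1.09 and 1.18 CPM, and within each temperature the counting intervals of CPA and DMSO overlapped. Alas2 had the fewest counts of the 4 genes in each library. Since CAGE counts 5′ ends, these levels are not divided by transcript length. In 37°C_DMSO the intervals of Hba-x, Hba-a1 and Alas2 overlapped, so their order there is not resolved. No other gene of the table had the same 4 counts as any of these genes.

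**Figure D1:**
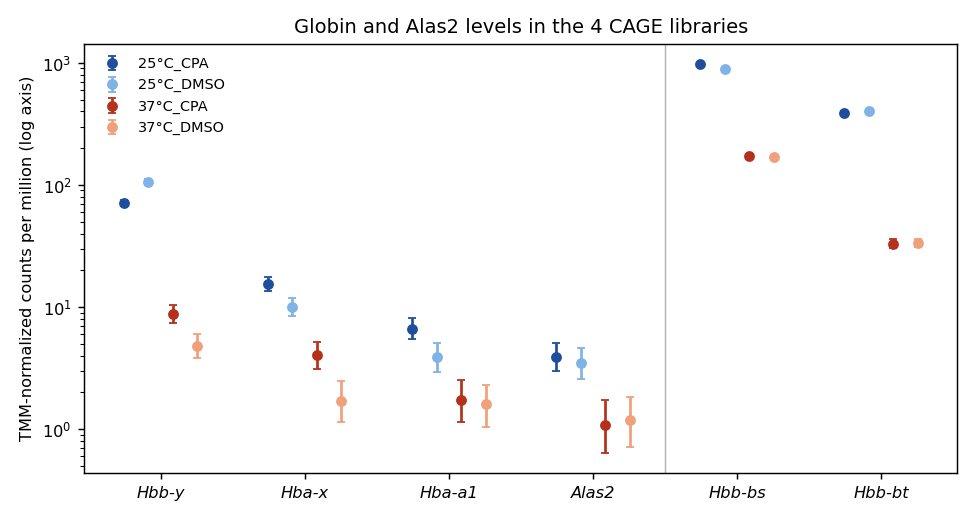
Level of each gene in TMM-normalized CPM (log axis) in the 4 libraries, with 95% counting intervals, and the adult β-globins Hbb-bs and Hbb-bt to the right of the line. Hbb-y lies between 4.84 and 106 CPM, and for every gene both 25 °C libraries lie above both 37 °C libraries.

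In all 4 genes both 25 °C libraries were above both 37 °C libraries, an order seen in 37.8% of the 13683 genes with 50 counts or more. In bulk RNA, fewer cells of a type and less RNA per cell cannot be told apart, so these levels do not separate the number of red cells from the globin RNA each held.

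The first comparison sets 25°C_DMSO beside 37°C_DMSO, the libraries without the drug. All 4 genes were 2-fold or more higher in 25°C_DMSO than in 37°C_DMSO, where 6.45% of 13491 measured genes were higher and 11.5% were lower by as much. Hba-x (147 against 29 counts), Hba-a1 (57 against 27) and Alas2 (51 against 20) passed the minimum count through 25°C_DMSO alone. Their calls are therefore not independent of that minimum. The median log2 fold of the 4 genes was 2.06, against -0.01 over all measured genes. Of the 4, the embryonic genes had the largest folds. A large fold was not particular to embryonic globins, as the adult Hbb-bt ranked 22nd and Hbb-bs 75th, beside Hba-x at 61st. Hbb-y was 21.8-fold higher (95% interval 17.45 to 27.6), and ranked 16th from the highest of all measured genes. Hba-x was 5.88-fold higher (3.93 to 9.08). Alas2 was 2.96-fold higher (1.73 to 5.23) and Hba-a1 2.45-fold higher (1.52 to 4.02), and the intervals of both reach below the 2-fold limit. They ranked 292nd and 470th.

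The same comparison in the presence of CPA uses the other pair of libraries and shares none with the first. All 4 genes were again called higher in 25°C_CPA than in 37°C_CPA, where 6.32% of 13343 measured genes were higher and 10.9% lower. Hba-a1 and Alas2 passed the minimum count through 25°C_CPA alone (100 and 59 counts, against 27 and 17), so their calls are not independent of it. Hbb-y was 8.07-fold higher (6.75 to 9.71), Hba-a1 3.86-fold (2.50 to 6.15), Hba-x 3.86-fold (2.91 to 5.18) and Alas2 3.62-fold (2.08 to 6.62). The median log2 fold of the 4 genes was 1.95, against 0.00387 over all measured genes. Apart from Hbb-y the genes had nearly equal folds here, with overlapping intervals. The adult β-globin Hbb-bt ranked 17th in this comparison, above Hbb-y at 34th. Genes higher in both comparisons made up 4.09% of 13151 genes measured in both, and all 4 genes were among those 538. The same limit of the minimum count holds here.

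**Figure D2:**
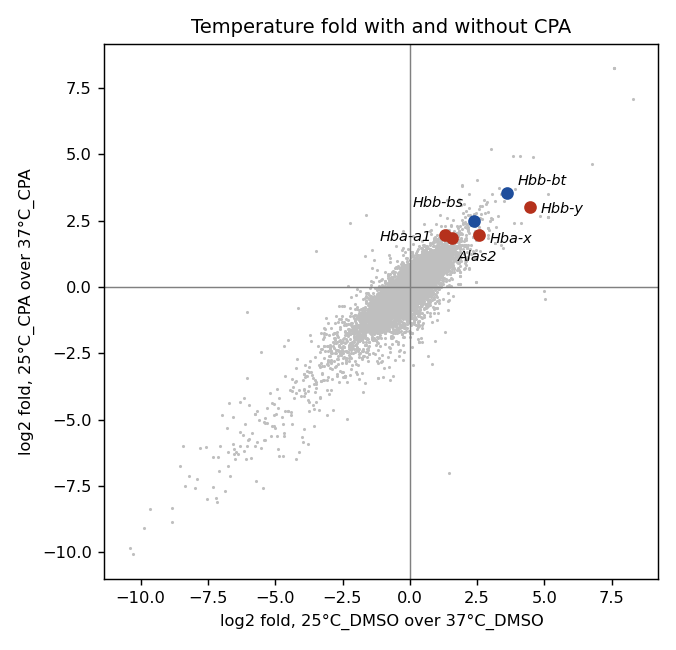
Log2 fold of 25 °C over 37 °C with CPA (vertical axis) and with DMSO (horizontal axis) for all genes measured in both comparisons (grey), the 4 genes (red) and 2 adult β-globins (blue). The red and blue points all lie in the upper right, with both folds above 0, with Hbb-y at 4.45 in DMSO and 3.01 with CPA.

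The effect of CPA was compared at each temperature. At 37 °C only Hbb-y and Hba-x had enough counts to be measured, and Hba-x was called higher, against 2.4% of 13307 measured genes higher and 1.59% lower. Hba-x was 2.35-fold higher in 37°C_CPA than in 37°C_DMSO (1.49 to 3.79), on 63 against 29 counts. Hba-x passed the minimum count through 37°C_CPA alone, so its call is not independent of that minimum, and its interval reaches below the 2-fold limit. Hbb-y was 1.82-fold higher (1.38 to 2.43), under the limit. Hba-a1 at 1.08-fold (0.611 to 1.92) and Alas2 at 0.921-fold (0.453 to 1.85) had fewer than 50 counts in both libraries, and no difference was detectable at this depth. This comparison shares 37°C_DMSO with the first comparison and 37°C_CPA with the second, so its folds are not independent of theirs.

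At 25 °C none of the 4 genes was called between 25°C_CPA and 25°C_DMSO, where 0.142% of 12704 measured genes were higher and 0.118% lower. Hbb-y, Hba-x and Hba-a1 nevertheless lay at the ends of a narrow distribution. The more abundant adult Hbb-bs and Hbb-bt did not, at percentiles 78.52 and 33.45. Hbb-y was at 0.675-fold in 25°C_CPA (0.624 to 0.73), with an interval that does not include 1, at percentile 1.09 of all measured genes. Hba-a1 was at 1.71-fold (1.22 to 2.41) and Hba-x at 1.54-fold (1.25 to 1.91), at percentiles 99.7 and 99.3. Their ranks rest on few counts, 100 against 57 for Hba-a1 and 233 against 147 for Hba-x. Alas2 was at 1.13-fold (0.762 to 1.67).

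**Figure D3:**
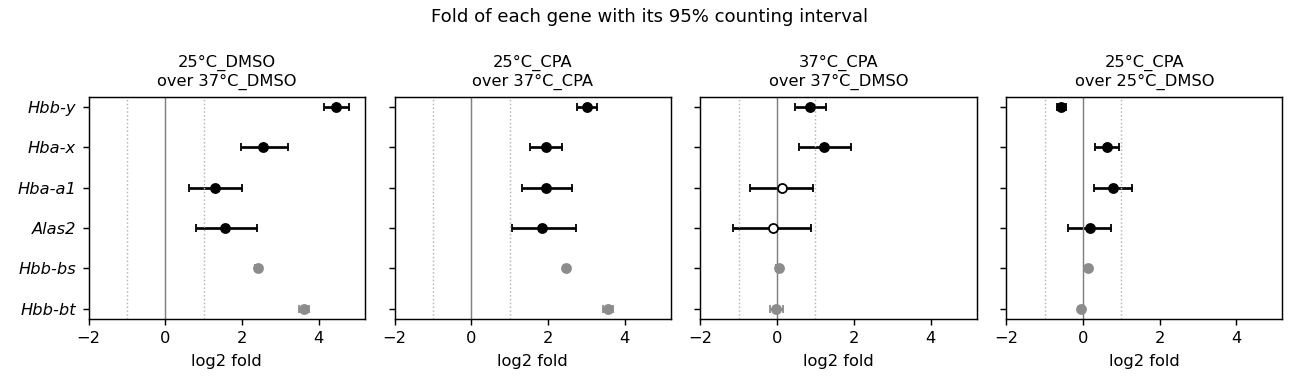
Log2 fold of each gene in the 4 comparisons with its 95% counting interval; dotted lines mark 2-fold, open circles mark genes with fewer than 50 counts in both libraries, and the adult β-globins are grey. All 4 genes lie right of the 2-fold line in both comparisons of 25 °C over 37 °C, and at 25 °C Hbb-y lies left of 0 while Hba-x and Hba-a1 lie right of it.

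Between single libraries, and so untested across samples, Hbb-y thus differed in opposite directions with CPA at the 2 temperatures. Its log2 fold of CPA over DMSO was -0.57 at 25 °C and 0.87 at 37 °C, a difference of -1.43 (-1.84 to -1.02, counting error only). For Hba-x the difference was -0.61 (-1.31 to 0.09), for Hba-a1 0.66 (-0.24 to 1.56) and for Alas2 0.29 (-0.79 to 1.37), and these intervals include 0.

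Shares within a library do not depend on scaling between libraries. Of the counts of Hbb-y, Hbb-bs and Hbb-bt together, the embryonic Hbb-y made up 4.98% in 25°C_CPA (4.69 to 5.28) and 7.52% in 25°C_DMSO (7.16 to 7.89), against 4.09% in 37°C_CPA (3.45 to 4.81) and 2.34% in 37°C_DMSO (1.86 to 2.89). The share was highest in 25°C_DMSO and lowest in 37°C_DMSO. The 2 CPA libraries lay between them, with intervals that overlapped slightly. Of Hba-x and Hba-a1 together, embryonic Hba-x made up 70.0% in 25°C_CPA (64.7 to 74.8), 72.1% in 25°C_DMSO (65.4 to 78.1), 70% in 37°C_CPA (59.4 to 79.2) and 51.8% in 37°C_DMSO (38.0 to 65.3). The interval of 37°C_DMSO overlapped those of both CPA libraries and ended just below that of 25°C_DMSO, and the count of Hba-a1 carries the uncertainty named above. Hba-a2 is not among these counts, so these shares are not a ratio of embryonic to adult α-globin RNA. Of the counts of Hbb-y, Hba-x and Hba-a1 together, Hba-x made up 16.6% in 25°C_CPA and 8.42% in 25°C_DMSO, against 27.6% in 37°C_CPA and 21.0% in 37°C_DMSO.

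The adult β-globins carried most of the globin counts. Hbb-bs had 14548 counts in 25°C_CPA and 13029 in 25°C_DMSO, against 2721 in 37°C_CPA and 2861 in 37°C_DMSO. Hbb-bt had 5849 and 5936 counts at 25 °C, against 517 and 566 at 37 °C, in the same order. In DMSO they were 5.28-fold (5.07 to 5.50) and 12.2-fold (11.1 to 13.3) higher at 25 °C, and with CPA 5.58-fold and 11.8-fold higher. Neither was called between CPA and DMSO, with folds of 1.03 and 0.989 at 37 °C and 1.09 and 0.960 at 25 °C. Hbb-bt made up 28.7% and 31.3% of their joint counts in 25°C_CPA and 25°C_DMSO, against 15.97% and 16.5% in 37°C_CPA and 37°C_DMSO. Transcripts of Hbb-bs and Hbb-bt share a run of 430 bases, so the division of counts between these copies is uncertain, while the longest run shared by Hbb-bs and Hbb-y is 22 bases. The 5 red cell globins together took 0.142% of all counts in 25°C_CPA and 0.137% in 25°C_DMSO, against 0.0227% in 37°C_CPA and 0.0217% in 37°C_DMSO. The α-like genes made up 0.985% to 2.6% of the globin counts, without Hba-a2. Cygb, cytoglobin of fibroblast-like cells, went the other way, with 328 and 300 counts at 25 °C in CPA and DMSO, against 431 and 708 at 37 °C, and was called lower at 25 °C in DMSO alone (0.491-fold), though not with Gapdh scaling.

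**Figure D4:**
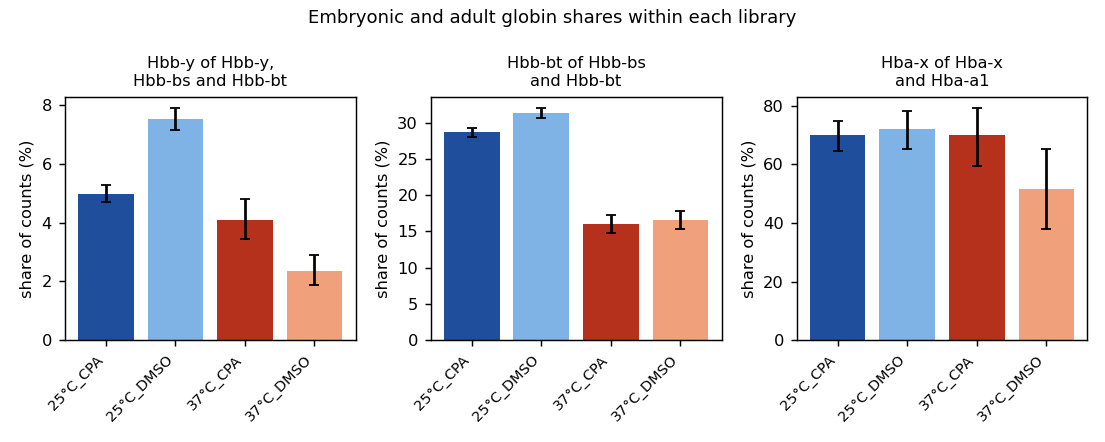
Share of counts (%) within each library, with 95% exact binomial intervals, of Hbb-y among 3 β-like globins, of Hbb-bt among 2 adult β-globins and of Hba-x among 2 α-like globins (Hba-a2 not included). The Hbb-y share is highest in 25°C_DMSO at 7.52%, and the Hbb-bt share is near 30% at 25 °C and near 16% at 37 °C.

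Genes of the other steps of haem synthesis and transport were counted from a list of 28, of which 26 were measured. In 25°C_DMSO 4 were called higher and 1 lower than in 37°C_DMSO, with a median log2 fold of 0.45. Scaling to Gapdh in place of TMM gave 11 higher and none lower, where 2399 of all 13491 measured genes were higher and 922 lower. Abcb6, a porphyrin transporter, was 4.09-fold higher (2.95 to 5.79) on 166 against 47 counts. Fech, ferrochelatase, which places iron into the porphyrin ring, was 2.03-fold higher on 1343 against 766 counts. Flvcr1, long described as a haem exporter, was 2.66-fold higher. Cpox, coproporphyrinogen oxidase, was the 1 gene called lower, at 0.492-fold. With CPA, Abcb6 (2.05-fold), Fech (2.10-fold) and Flvcr1 (2.50-fold) were higher and Cpox lower (0.345-fold) in 25°C_CPA than in 37°C_CPA.

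Alas1, the form of the first enzyme used outside red cells, did not follow Alas2. It had 261 and 290 counts in 25°C_CPA and 25°C_DMSO, against 390 and 401 in 37°C_CPA and 37°C_DMSO. Its folds of 25 °C over 37 °C were 0.698 (0.594 to 0.819) with CPA and 0.838 (0.718 to 0.977) in DMSO, neither called. The mitochondrial glycine carrier Slc25a38 was at 1.68-fold with CPA and 1.71-fold in DMSO, also not called. No gene of the list was called between CPA and DMSO at either temperature.

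Genes called in the remaining red cell lists are to be read beside the 6.45% higher and 11.5% lower of all measured genes in DMSO. With CPA these shares were 6.32% and 10.9%. Gapdh scaling gave 2399 higher and 922 lower of all 13491 measured genes in DMSO. With CPA it gave 3733 higher and 635 lower of 13343, so list counts under Gapdh scaling are to be read beside these. In the list of red cell membrane and skeleton genes, 0 of 10 measured genes were called higher and 4 lower in 25°C_DMSO than in 37°C_DMSO, 2 of them with Gapdh scaling. Those 4 were Slc2a1, the glucose transporter (0.27-fold), Dmtn, dematin (0.353-fold), Aqp1, a water channel (0.428-fold), and Stom, stomatin (0.444-fold). Slc2a1, Aqp1 and Stom are also used by many other tissues. Gypc, glycophorin C, had 231 and 265 counts in 25°C_CPA and 25°C_DMSO, against 239 and 442 in 37°C_CPA and 37°C_DMSO, and Epb41, protein 4.1, was at 1.79-fold with CPA and 1.39-fold in DMSO, neither called for temperature. With CPA, 0 of 9 were higher and 2 lower at 25 °C, while Gapdh scaling gave 2 higher and 0 lower.

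Of the erythroid transcription factor list, 0 of 17 measured genes were higher and 4 were lower in 25°C_DMSO than in 37°C_DMSO, and the median log2 fold of -0.34 became 0.08 with Gapdh scaling. The 4 were Cbfa2t3, a corepressor (0.303-fold), Mafg, a small Maf partner of NF-E2 (0.424-fold), Foxo3 (0.447-fold) and Lmo2, a bridging factor of blood and vessel cells (0.495-fold). The other 4 factors present were below the minimum. Nfe2, the partner of Mafg, had 19 and 20 counts in 25°C_CPA and 25°C_DMSO, against 2 and 7 in 37°C_CPA and 37°C_DMSO. Tal1, a master factor of blood cells, had 5 and 10, against 6 and 2, Gata2 had 11 and 9, against 18 and 17, and Zfpm1 had 1 and 1, against 13 and 6. Gata1 and Klf1 were not analysed here. With CPA, 0 of 16 factors were higher and 2 lower at 25 °C, while Gapdh scaling gave 2 higher and 1 lower.

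Of red cell enzymes and maturation genes, 1 of 14 was higher and 1 lower in 25°C_DMSO than in 37°C_DMSO, and 3 higher and 1 lower with Gapdh scaling. Tfdp2, an E2F partner, was 2.22-fold higher and Ube2l6, a ubiquitin-conjugating enzyme, was at 0.266-fold. Of 17 iron genes 0 were higher and 4 lower in the same comparison, among them Trf, serum transferrin, with 11 and 15 counts in 25°C_CPA and 25°C_DMSO, against 175 and 364 in 37°C_CPA and 37°C_DMSO. Steap4, an iron reductase, was at 0.189-fold in DMSO. Tfrc, the receptor that red cell precursors use to take up transferrin iron, was at 0.542-fold in DMSO and 0.639-fold with CPA, not called. Gapdh scaling gave 1 iron gene higher and 2 lower in DMSO. With CPA, 1 of 14 enzyme genes was higher and 2 lower at 25 °C, and 0 of 17 iron genes were higher and 3 lower, while Gapdh scaling gave 4 higher and 1 lower in either list. Between CPA and DMSO, 1 gene of these lists was called at 37 °C (Aqp1, 0.368-fold) and none at 25 °C.

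**Figure D5:**
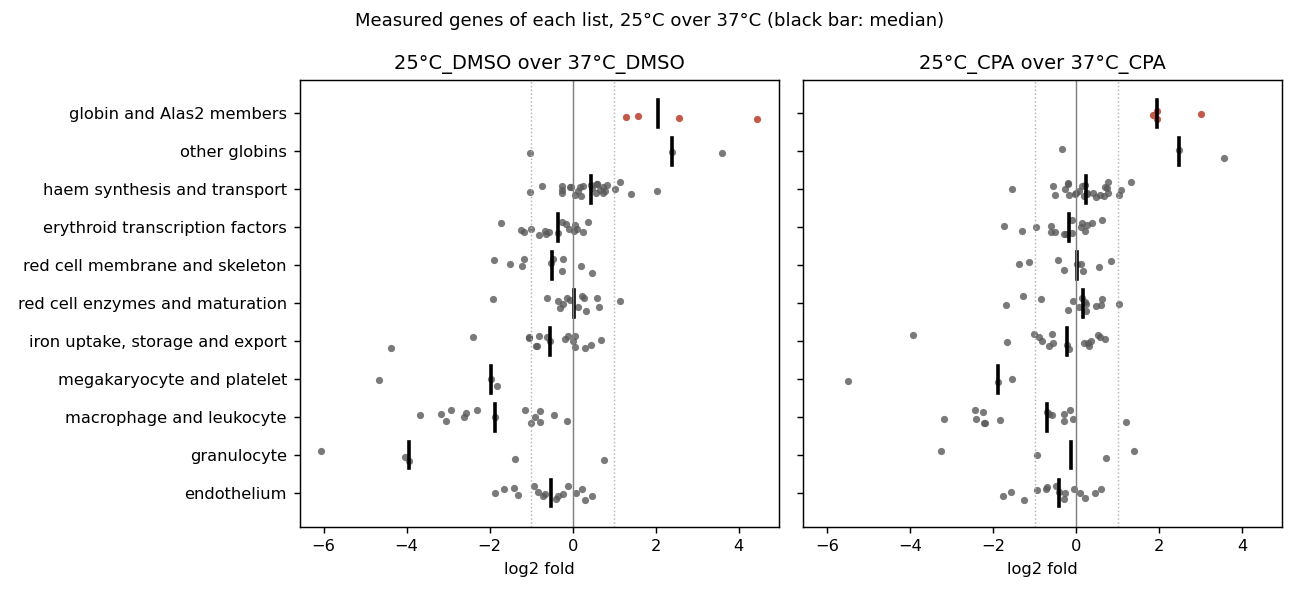
Log2 fold of 25 °C over 37 °C for every measured gene of each list (points), in DMSO on the left and with CPA on the right; black bars are medians and dotted lines mark 2-fold. The 4 genes have medians of 2.06 and 1.95, and the lists of red cell membrane, transcription factor and iron genes have medians between -0.56 and 0.01 under TMM scaling (-0.13 to 0.67 with Gapdh scaling).

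A list of genes known from the flanks of the α-globin cluster had 10 genes present, of which 4 lie beside the mouse cluster on chromosome 11 (Snrnp25, Rhbdf1, Mpg and Nprl3) and 6 on other chromosomes, which are left aside here. None of the 4 was called in any comparison under TMM scaling. Nprl3, whose introns hold enhancers of the α-globin genes, was at 1.70-fold in 25°C_DMSO over 37°C_DMSO (1.49 to 1.95) and 1.44-fold with CPA. Mpg, a DNA glycosylase, was at 1.65-fold and 1.68-fold, Snrnp25 at 1.44-fold and 1.51-fold, and Rhbdf1 at 0.838-fold and 1.06-fold, each in DMSO and then with CPA. None of 8 measured neighbours of Alas2 was called in any comparison under TMM scaling.

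Other blood and vessel cells of the tissue were followed by their own lists, and their part in the globin result was not tested. Macrophage and leukocyte genes (16 present) summed to 239 and 233 CPM in 25°C_CPA and 25°C_DMSO, against 752 and 1031 CPM in 37°C_CPA and 37°C_DMSO, and 0 of 15 were higher and 9 lower at 25 °C in DMSO. Endothelial genes (19 present) summed to 191 and 211 CPM at 25 °C, against 257 and 328 CPM at 37 °C, in the same order. Of 16 measured endothelial genes 0 were higher and 4 lower in 25°C_DMSO than in 37°C_DMSO and 12 were not called. The lowest was the vessel cadherin Cdh5 at 0.271-fold and the highest Emcn, endomucin, at 1.39-fold. Under TMM scaling both sums were lower in the libraries where globins were higher, while with Gapdh scaling the endothelial median log2 fold of 25 °C over 37 °C was -0.11 in DMSO and 0.26 with CPA. Megakaryocyte and platelet genes (4 present) summed to 50.8 and 58.9 CPM, against 237 and 271 CPM, and pericyte and smooth muscle genes (10 present) to 200 and 214 CPM, against 427 and 533 CPM. In 37°C_DMSO the platelet sum rested mainly on Pf4 (189 CPM) and Ppbp (58.8 CPM). All 3 measured platelet genes were called lower in 25°C_DMSO, while Itga2b, below the minimum, had 38 counts there against 42 in 37°C_DMSO. Blood progenitor genes (10 present) summed to 156 and 165 CPM, against 140 and 213 CPM, with 1 of 9 higher and 5 lower in DMSO. Granulocyte genes (5 present) summed to 41.2 CPM in 25°C_CPA and 8.56 CPM in 25°C_DMSO, against 46.1 and 45.7 CPM in 37°C_CPA and 37°C_DMSO, and at 25 °C this rested on S100a8 (326 counts in 25°C_CPA against 30 in 25°C_DMSO) and S100a9 (207 against 6), while Prtn3 had 76 against 83. All genes present in these lists had counts in each library, except that the granulocyte list and the pericyte list each had 1 gene at 0 in 25°C_CPA and 1 in 25°C_DMSO.

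Cirbp and Rbm3, RNA-binding proteins whose RNA is known to rise with mild cold, were 4.43-fold and 4.37-fold higher in 25°C_DMSO than in 37°C_DMSO. With CPA they were 4.77-fold and 2.85-fold higher. The fold of Hbb-y was larger than either in both comparisons. Of 10 genes of the p53 response, 8 were called higher in 37°C_CPA than in 37°C_DMSO, beside 2.4% of all 13307 measured genes. None was called in 25°C_CPA over 25°C_DMSO, where 0.142% of 12704 measured genes were higher. Several of the 8, among them Ccng1 and Eda2r, are on the study's own list of genes raised in 37°C_CPA. That list came from these same libraries, so the count of 8 is not independent of it.

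Genes with the most similar profile were ranked by the distance of their centred log2 levels from the median of the 4 genes over the 4 libraries. The nearest of 13679 candidates were E230016M11Rik, 1110006O24Rik, Gm42067, Rpl30-ps10, Nell2, Gm14279, Ofd1, Etaa1os, 2310068J16Rik and 4930556M19Rik, at distances of 0.227 to 0.284. Nell2, a secreted protein of neurons, had 603 and 512 counts in 25°C_CPA and 25°C_DMSO, against 216 and 177 in 37°C_CPA and 37°C_DMSO, and Ofd1, a centriole protein, had 496 and 438, against 186 and 140. None of the 10 belongs to the erythroid lists. The distance of Hba-x itself was 0.418, with 52 other genes nearer, that of Hba-a1 0.498 with 107 nearer, and that of Alas2 0.647 with 259 nearer. Hbb-y was at 2.07 with 9831 genes nearer, and its range across libraries was the widest of the 4. With 4 points that share library and scaling, such likeness is common, and 312 candidates had a Pearson correlation above 0.99 with the median.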

How the data were processed

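CAGE libraries were made from total RNA of pooled tooth germs, 1 library per condition, with an RNA integrity number above 8.5. Per the study's methods, mm9 alignment of the tags was followed by start site definition in the MOIRAI pipeline with SAMtools. BWA 0.5.9, mm9 and GRCh38 appear in the submitters' processing notes, with no role stated. Which annotation was used, and how tags were summed to genes, is not given in the sources used here. Raw counts of 15887 genes were deposited by the authors as whole numbers, each gene having 5 or more in its highest library. The 4 counts of 915 genes were the same as those of some other gene. All 4 count columns were matched to the samples by name and 0 columns were left unused.

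TMM factors were computed over the 4 libraries with edgeR 4.0.16 (R 4.3.3), and a fold is the ratio of counts over total times factor. Its 95% interval is the exact (Clopper-Pearson) binomial interval of the split of the 2 counts. Shares have exact binomial intervals. Molecules were not told apart by identifiers, so intervals cover counting error only. A count of 0 was set to 3 counts, and no fold was taken where both counts were 3 or fewer. Where a symbol had several rows, the row with the highest sum was used. Differences of log2 folds between temperatures have a normal interval on 4 Poisson counts. Distances used log2 of CPM plus 1.

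All members are reported with all their values. Of the 18 other lists, called genes among the 4 highest or 4 lowest folds could be named, and any gene of the other globin, haem and membrane lists, the 10 nearest genes and Gapdh. Tfrc, Emcn, Prtn3, Itga2b, the factors below the minimum and the genes beside the α-globin cluster lie outside this rule and were chosen after their values were seen. The members and lists were chosen with earlier results of these data known. Promoters are from RefSeq (GRCm38.p6), and 14333 gene identifiers matched GENCODE vM1. Calculations used Python 3.11.15, pandas 2.3.3 and SciPy 1.17.1 and were tested on simulated data. Alternatives were no scaling, total count, DESeq2 1.42.0 size factors, Gapdh, a minimum of 200 counts or none, 10 added counts, thinning to the shallowest library, a 1.5-fold limit, and an interval beyond 2-fold. Some single genes of the lists are not reported here.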

Additional observations from a re-analysis of the deposited data

Results flagged for a closer look

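The effect of CPA on Hbb-y went in opposite directions at the 2 temperatures. Hbb-y was lower in 25°C_CPA than in 25°C_DMSO (1068 against 1542 counts) and higher in 37°C_CPA than in 37°C_DMSO (138 against 82 counts). The log2 fold at 25 °C minus that at 37 °C was -1.433, with a counting interval of -1.84 to -1.02. With 1 library per condition the difference was not tested across samples, and the spread between tooth germ pools is unknown. For the adult β-globins the same difference was 0.08 for Hbb-bs (-0.0039 to 0.16) and -0.04 for Hbb-bt (-0.22 to 0.14).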

How the results depend on the processing

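The folds of the 4 genes kept their direction of temperature under every scaling, added count and thinning. Of 96 recomputed folds 92 stayed within the counting interval, and 4 left it with Gapdh scaling. These were Hbb-y at 29.3-fold in 25°C_DMSO over 37°C_DMSO, Hbb-y at 12.8-fold and Hba-x at 6.10-fold in 25°C_CPA over 37°C_CPA, and Hbb-y at 0.817-fold in 25°C_CPA over 25°C_DMSO. The difference of the CPA effect between temperatures stayed within its interval in 24 of 24 recomputations. With a minimum of 200 counts, 1 of the 4 genes was left and called in 25°C_DMSO over 37°C_DMSO, 2 in 25°C_CPA over 37°C_CPA and 0 in 37°C_CPA over 37°C_DMSO. With an interval beyond 2-fold, 2 genes (Hbb-y and Hba-x) were called in 25°C_DMSO over 37°C_DMSO and 0 in 37°C_CPA over 37°C_DMSO. A 1.5-fold limit gave 2 calls in each comparison of CPA with DMSO, and Gapdh scaling gave 1 (Hba-a1) at 25 °C. Over the 6 erythroid lists together, 22 of 87 measured genes were called in 25°C_DMSO over 37°C_DMSO, 11 with an interval beyond 2-fold and 39 at 1.5-fold. Of all measured genes, 6.45% were higher and 11.5% lower there by 2-fold or more. In 25°C_CPA over 37°C_CPA 16 of 85 list genes were called, beside 6.32% higher and 10.9% lower of all measured genes. That number became 28 with Gapdh scaling, 25 with no minimum count, 10 with an interval beyond 2-fold and 33 at 1.5-fold. In 37°C_CPA over 37°C_DMSO there was 1, but 3 with no scaling, 8 with no minimum and 9 at 1.5-fold, and in 25°C_CPA over 25°C_DMSO 0, but 4 with no minimum. Of all measured genes, 2.4% were higher and 1.59% lower with CPA at 37 °C, and 0.142% and 0.118% at 25 °C. The share of all genes called was not computed for the other minimum counts, the 1.5-fold limit or the interval rule. The all-gene median (log2) shifted under Gapdh scaling by 0.43, 0.66, 0.04 and 0.28 in the comparisons as ordered in the report, and no scaling by -0.21, -0.06, -0.11 and 0.04. In 25°C_DMSO over 37°C_DMSO, 35.9% of called genes were higher, but 72.2% with Gapdh scaling and 20.7% with none. In 25°C_CPA over 37°C_CPA these were 36.7%, 85.5% and 31.2%, in 37°C_CPA over 37°C_DMSO 60.2%, 66.0% and 43.2%, and in 25°C_CPA over 25°C_DMSO 54.5%, 89.7% and 55.9%. Taken over all 5 red cell globins, the share of Hba-x was 1.07% in 25°C_CPA, 0.71% in 25°C_DMSO, 1.82% in 37°C_CPA and 0.814% in 37°C_DMSO. Ranked by Pearson correlation, 0 of the 10 nearest genes were shared. No paired analysis was possible because each condition has 1 library. The cause of these changes was not tested. Depth limits the 37 °C levels of Hba-a1 and Alas2, which rest on 17 to 27 counts.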
